A study of Mus musculus with 12 samples.

Results

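The mesothelial genes Msln, Anxa8, Upk3b, Upk1b, Lrrn4, Wt1 and Muc16 were followed through the first days of reprogramming in mouse embryonic fibroblasts, with and without vitamin B12. They are 7 of the 55573 genes in the count table, found by their symbols, and all 7 passed the filter on low counts. The set was built around Msln and Anxa8, 2 genes picked because they had been higher after induction in these same libraries. Their change with induction is therefore given as a description without a test, and the other 5 members were added because they are known from mesothelium.

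Mesothelium is the sheet of flat cells that lines the body cavities and covers the organs inside them, and it descends from the mesoderm of the embryo. It carries features of epithelium together with features of connective tissue, and its cells can turn into fibroblast-like cells. Msln encodes mesothelin, a glycoprotein anchored in the outer cell membrane, which binds the membrane mucin encoded by Muc16. Wt1 encodes a zinc finger transcription factor of mesothelium that is also used in kidney and gonad.

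All cells were C57BL/6 mouse embryonic fibroblasts (MEFs) from E13.5 embryos, carrying a cassette from which doxycycline drives Oct4, Sox2, Klf4 and Myc (OSKM), the factors that can return fibroblasts to pluripotency. Cells of 3 embryos, called clones 1, 2 and 3 in the labels, were each grown for 72 h in medium for pluripotent stem cells as 4 cultures. These were MEF (no doxycycline), MEF+B12 (2 µM vitamin B12), OSKM (1 µg/ml doxycycline) and OSKM+B12 (both agents), which gave 12 libraries with n = 3 per group. That concentration was taken from the labels, and the study's methods print it with another unit. Uninduced cells received no doxycycline, so effects of the drug and of the factors cannot be told apart, and each clone is 1 embryo. The library titles give a later year for clone 1 than for the other clones. RNA was measured in bulk, where more cells expressing a gene and more RNA per cell cannot be told apart.

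Library totals ranged from 56971244 to 79236795 counted read pairs. The OSKM library of clone 1 stood apart in its pseudogenes, where its log2 difference from the clone's other libraries had an SD of 0.556 over 1519 genes, against 0.114 to 0.247 in the other 11 libraries. Of the induced factors, Pou5f1, Sox2 and Myc were low in clone 3, and Klf4 was raised in no clone. Pou5f1, which encodes Oct4, was between 18.5 and 20.7 CPM (counts per 1e6 after scaling for composition) across the induced libraries of clones 1 and 2, against 2.86 and 2.33 CPM for clone 3. Sox2 was between 13.3 and 17.8 CPM in the former and 2.33 and 2.18 CPM in the latter. Myc was between 43.6 and 53.4 CPM in induced clones 1 and 2, against 20.0 and 21.9 CPM in induced clone 3. Klf4 was between 114.9 and 122.5 CPM in induced clones 1 and 2, against 118.7 and 108.3 CPM in induced clone 3.

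The promoters of 3 members whose largest difference with induction without B12 was in clone 1 are shown as the regions from which their RNA starts, each running from 250 bases before to 50 bases after the start (RefSeq, GRCm38.p6). RefSeq entries were matched for 4 of the 7 members, Anxa8, Upk3b, Lrrn4 and Muc16. Capitals mark matches to any of the motifs searched.
Anxa8 (chr14:34085729-34086028, plus strand): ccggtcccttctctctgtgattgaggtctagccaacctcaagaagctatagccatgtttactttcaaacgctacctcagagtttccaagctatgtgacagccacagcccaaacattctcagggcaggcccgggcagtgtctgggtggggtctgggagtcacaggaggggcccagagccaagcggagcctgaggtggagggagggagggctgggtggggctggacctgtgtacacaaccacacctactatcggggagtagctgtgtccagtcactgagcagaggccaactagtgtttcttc
Upk3b (chr5:136038246-136038545, plus strand): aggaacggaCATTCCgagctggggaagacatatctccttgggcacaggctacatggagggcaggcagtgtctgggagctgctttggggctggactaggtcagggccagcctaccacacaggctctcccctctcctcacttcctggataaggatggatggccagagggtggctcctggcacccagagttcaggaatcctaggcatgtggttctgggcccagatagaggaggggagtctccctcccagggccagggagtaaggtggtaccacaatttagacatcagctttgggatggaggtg
Lrrn4 (chr2:132880813-132881112, minus strand): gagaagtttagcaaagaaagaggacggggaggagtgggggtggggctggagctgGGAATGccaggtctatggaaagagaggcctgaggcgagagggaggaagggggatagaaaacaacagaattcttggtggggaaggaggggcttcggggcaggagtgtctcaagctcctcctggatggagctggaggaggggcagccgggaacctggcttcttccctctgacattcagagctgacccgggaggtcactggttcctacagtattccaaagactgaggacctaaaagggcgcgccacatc
The motifs were searched on both strands, and none of them overlaps another within these 4 promoters. GGAATG, the core recognised by TEAD factors, was found at position -196 of Lrrn4 and, on the opposite strand, at position -241 of Upk3b. The same letters occur in 14.7% of 32851 promoters of this length. The octamer ATGCAAAT bound by Oct4 (1.74% of promoters), CCACACCC of Kruppel-like factors (3.56%), the E-box CACGTG of Myc (7.15%), TGANTCA of AP-1 (7.81%), TATAAA (13.6%) and GCGTGGG of the WT1 and EGR fingers (5.04%) were not among the letters of the 4 windows. The GC content was 57.3% in Anxa8, 58.7% in Upk3b, 58.0% in Lrrn4 and 46.7% in Muc16, against a median of 52.7%.

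The levels of the members were compared per exon length, as FPKM (CPM per kilobase of exon). Anxa8 was the most abundant, with a mean of 17.2 FPKM over the 12 libraries and a range of 8.87 to 32.5. Upk3b followed with 4.001 (2.20 to 6.43) and Msln with 3.84 FPKM (1.38 to 8.59), and the ranges of these neighbours overlap. Upk1b had 2.04 (1.19 to 3.41) and Lrrn4 1.94 FPKM (1.41 to 3.03), which overlap each other and the range of Msln. Wt1 had 0.463 (0.243 to 0.610) and Muc16 0.0167 FPKM (0.00274 to 0.0363), and neither range overlaps that of any other member. Measured on the longest transcript, Wt1 was at 0.928 and Msln at 5.43 FPKM, which puts Msln before Upk3b.

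**Figure D1:**
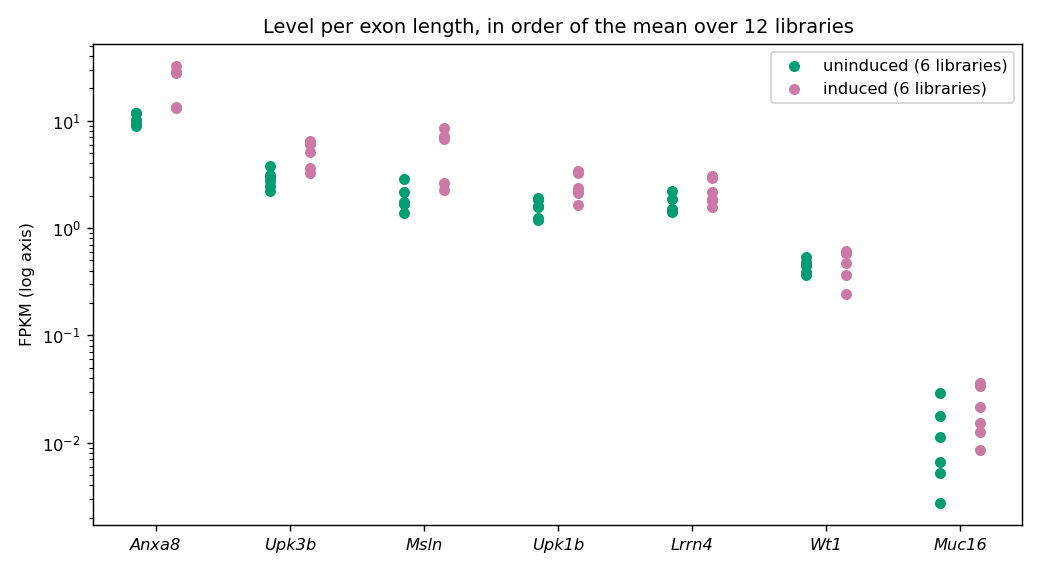
Level of each member in FPKM on a log axis, with 1 point per library, 6 uninduced (MEF and MEF+B12) and 6 induced (OSKM and OSKM+B12), in order of the mean over 12 libraries. Anxa8 lies above all other members, at 8.87 to 32.5 FPKM, and Muc16 lies below them, at 0.00274 to 0.0363 FPKM.

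Msln (ENSMUSG00000063011, GRCm38 chromosome 17, 25748613 to 25754378, minus strand) had 5.18, 5.41 and 8.78 CPM in the MEF libraries of clones 1, 2 and 3, against 4.23, 5.29 and 6.62 CPM in MEF+B12. In OSKM it had 21.4, 20.9 and 6.96 CPM, and in OSKM+B12 26.3, 22.1 and 8.05 CPM. The induced libraries of clones 1 and 2 lie above every uninduced library, while those of clone 3 lie within the uninduced range. Group means were 6.46 ± 2.02 CPM (SD, n = 3) in MEF and 5.38 ± 1.20 with B12, and after induction 16.4 ± 8.17 and 18.8 ± 9.57 CPM without and with B12. Within clones, Msln was 4.13 and 3.86 times as high in OSKM as in MEF for clones 1 and 2, and 0.793 times as high for clone 3. With B12 the ratios were 6.22, 4.19 and 1.22. The fitted log2 fold change was 1.21 ± 0.46 (SE) without and 1.70 ± 0.46 with B12, and it was 2.00 ± 0.13 and 2.35 ± 0.13 in a fit without clone 3, against 0.79 and 1.19 without clone 1. Of the 31-base words in its transcripts, 3.61% also occur in other genes.

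Muc16 (ENSMUSG00000109564, chromosome 9, 18495455 to 18674530, minus strand), which encodes the mucin that mesothelin binds, gave few counts. It had 10, 19 and 49 counts in MEF of clones 1, 2 and 3, 5, 8 and 32 counts in MEF+B12, 60, 13 and 26 in OSKM, then 65, 35 and 26 in OSKM+B12. Clone 1 had more counts after induction in both media, while clone 3 had its highest count in uninduced cells. The group means were 0.415 ± 0.316, 0.227 ± 0.214, 0.483 ± 0.357 and 0.639 ± 0.286 CPM (SD, n = 3) in the order of the counts, and the groups overlap. Within clones the log2 difference with induction was 2.17, -0.37 and -1.14 without B12 and 3.26, 1.82 and -0.22 with B12. Neither comparison passed the threshold of 0.05, with adjusted p-values of 0.903 and 0.338 in the quasi-likelihood test of edgeR. The other mucins gave no wider pattern, since 10 of 11 on the list were too low to be tested, and Muc1, a mucin of many epithelia, had log2 fold changes of 0.09 and -0.30 with adjusted p-values of 0.685 and 0.259.

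Upk3b and Upk1b encode uroplakins, membrane proteins named for the lining of the bladder, and both are also made in mesothelium. Upk3b (ENSMUSG00000042985, chromosome 5, 136038496 to 136046487, plus strand) had 8.76, 10.5 and 13.4 CPM in MEF of clones 1, 2 and 3 and 7.77, 9.75 and 10.9 CPM in MEF+B12. In OSKM it had 22.7, 17.9 and 11.5 CPM, and in OSKM+B12 21.4, 21.95 and 12.9 CPM. As with Msln, the 4 induced libraries of clones 1 and 2 lie above all others and clone 3 lies within the uninduced range. The log2 fold change was 0.64 ± 0.26 without B12 (95% interval 0.06 to 1.22, adjusted p = 0.231) and 0.96 ± 0.26 with B12 (0.38 to 1.54, adjusted p = 0.180). Without clone 3 Upk3b rose by 1.08 and 1.31 on the log2 scale, with adjusted p-values of 0.00728 and 0.00358. Without clone 1 the values were 0.26 and 0.71 (adjusted p = 0.763 and 0.690), and without the OSKM library of clone 1 alone they were 0.36 and 0.98 (adjusted p = 0.603 and 0.144).

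Upk1b (ENSMUSG00000049436, chromosome 16, 38773184 to 38800328, minus strand), a tetraspanin of the same family, had 2.48, 3.37 and 3.94 CPM in MEF of clones 1, 2 and 3, 2.62, 3.27 and 3.82 CPM in MEF+B12, 6.82, 4.77 and 3.42 CPM in OSKM and 7.12, 4.95 and 4.42 CPM in OSKM+B12. Clone 1 was lowest before induction and highest after it, and the groups overlap through the OSKM library of clone 3. The log2 fold change was 0.58 ± 0.27 without B12 (95% interval -0.02 to 1.19, adjusted p = 0.277) and 0.75 ± 0.27 with B12 (0.15 to 1.34, adjusted p = 0.241). Without clone 1 it was 0.16 and 0.39, without the OSKM library of clone 1 0.30 and 0.77, and without clone 3 0.97 and 1.03, where the adjusted p was 0.0605 and 0.0587. The uroplakins that define bladder lining were at or near 0 in every library. Upk3a had 0 counts in all 12 libraries, Upk2 had at most 4 and Upk1a at most 17.

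Anxa8 and Lrrn4 are the other members tied to the cell membrane. Anxa8 (ENSMUSG00000021950, chromosome 14, 34085981 to 34100571, plus strand) encodes an annexin, a protein that binds phospholipids when calcium is present, and is made in several epithelia besides mesothelium. It had 19.3, 19.3 and 22.04 CPM in MEF of clones 1, 2 and 3, 16.7, 17.7 and 22.3 CPM in MEF+B12, 61.1, 52.6 and 25.3 CPM in OSKM and 53.6, 53.4 and 24.5 CPM in OSKM+B12. Every induced library lies above every uninduced library, clone 3 by a small margin. The ratios of OSKM to MEF were 3.17, 2.72 and 1.15, and with B12 they were 3.21, 3.02 and 1.10. The fitted log2 fold changes were 1.12 ± 0.30 without and 1.14 ± 0.30 with B12, and 1.56 ± 0.08 and 1.64 ± 0.08 without clone 3. Across the rest of the annexin family, 0 of 9 tested members were called in either comparison, where 0.073% and 0.104% of all genes were. At an unadjusted p under 0.05 there were 1 and 2 of 9, where 19% and 14.9% of all genes were. The median log2 fold changes of the 9 were 0.02 and -0.01.

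Lrrn4 (ENSMUSG00000043110, chromosome 2, 132868305 to 132880891, minus strand), which encodes a transmembrane protein with leucine-rich repeats, had 5.63, 5.45 and 8.17 CPM in MEF of clones 1, 2 and 3 and 5.52, 5.23 and 6.97 CPM in MEF+B12. In OSKM it had 11.3, 5.83 and 6.58 CPM, and in OSKM+B12 10.8, 7.99 and 6.87 CPM. Only the induced libraries of clone 1 stand clear of the uninduced range. The log2 fold change was 0.27 ± 0.23 without B12 (adjusted p = 0.551) and 0.52 ± 0.23 with B12 (adjusted p = 0.310). Without clone 1 the difference without B12 was -0.12, so its sign rested on that clone. Among 4 relatives of Lrrn4, 0 were called with induction over the 12 libraries in edgeR's test, where 0.073% and 0.104% of all genes were. An unadjusted p under 0.05 was reached by 3 and 2 of the 4, and by 19% and 14.9% of all genes. Without clone 3, Lrrn3 alone was called, where 6.87% and 5.22% of all genes were. Lrrn3 fell by 0.58 without and by 0.61 with B12 on the log2 scale, with adjusted p-values of 0.0180 and 0.0155.

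Wt1 (ENSMUSG00000016458, chromosome 2, 105126529 to 105173616, plus strand), the transcription factor of the set, did not follow the surface proteins. It had 3.36, 2.25 and 2.95 CPM in MEF of clones 1, 2 and 3, 2.96, 2.39 and 2.77 CPM in MEF+B12, 3.66, 1.504 and 2.92 CPM in OSKM and 3.78, 2.27 and 3.61 CPM in OSKM+B12. The libraries order by clone, with clone 2 lowest in every group, and the groups overlap. The log2 fold change was -0.11 ± 0.16 without B12 (95% interval -0.46 to 0.24, adjusted p = 0.727) and 0.23 ± 0.16 with B12 (-0.12 to 0.57, adjusted p = 0.552). Among genes of other tissues that use Wt1, Sox9 and Six2, transcription factors that fibroblasts can also make, had over 80 counts in each library, whereas Pax2 and Pax8, transcription factors of the developing kidney, had at most 7 and 4.

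**Figure D2:**
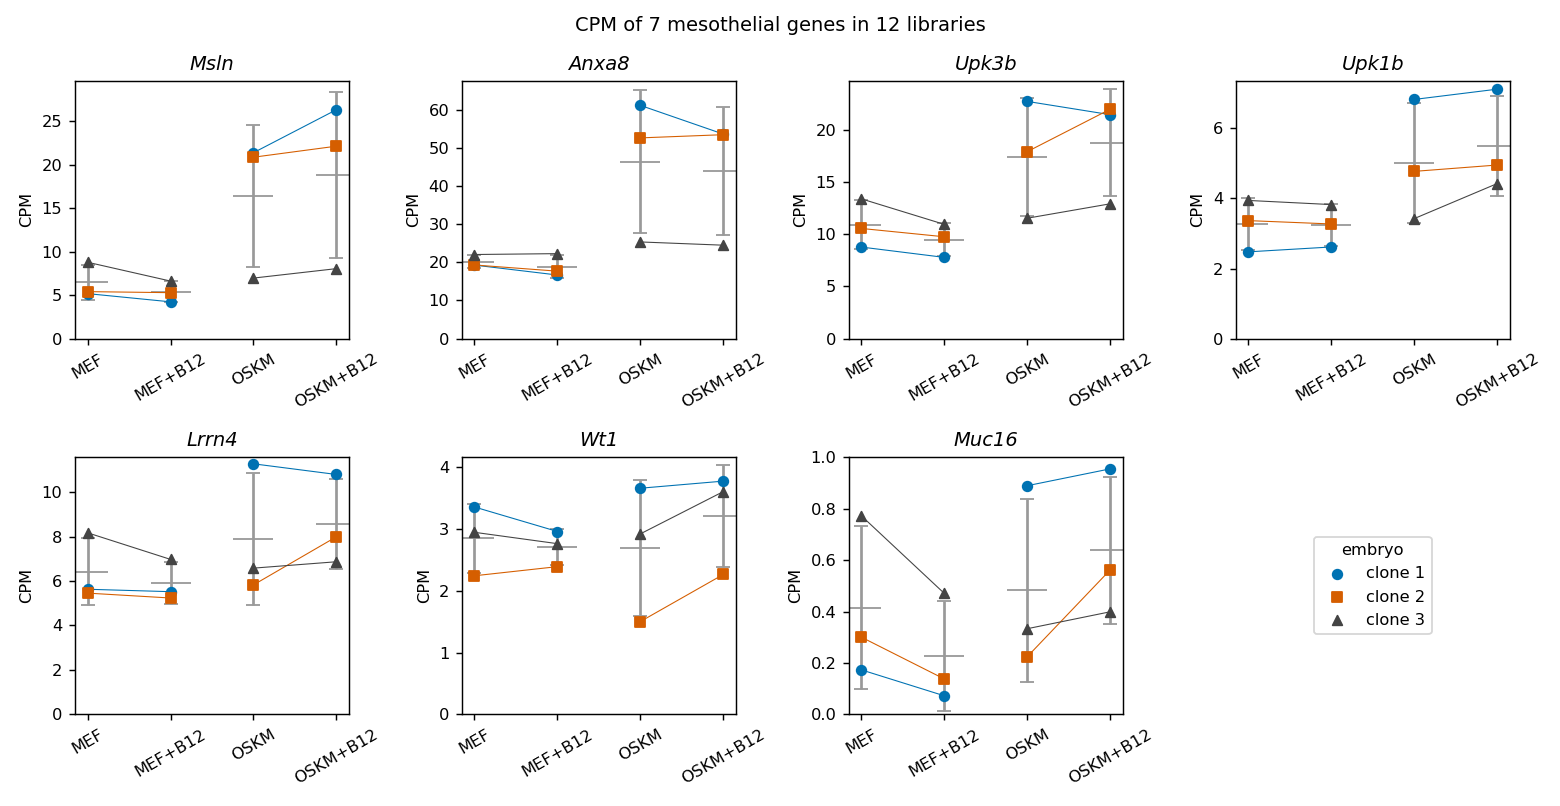
CPM of each member in the 12 libraries, with 1 point per library, colour and shape for the clone, thin lines joining the libraries of a clone without and with B12, and grey bars for the mean ± SD (n = 3) of each group. For Msln, clones 1 and 2 reach 20.9 to 26.3 CPM after induction while clone 3 stays at 6.96 and 8.05 CPM, and Wt1 shows no such step.

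The question of whether induction changed the members over all 3 clones was answered for the 5 that had not been chosen on it. Without B12, 0 of 5 were called at an adjusted p under 0.05, where 0.073% of 19174 genes were called, and with B12 0 of 5 were called, where 0.104% of all genes were. At an unadjusted p under 0.05 there were 1 and 3 of 5, where 19% and 14.9% of all genes were, and DESeq2 called 0 of 5 in each, while it called 487 and 416 of all genes. In the fits without clone 3, Upk3b was the 1 called of 5 in both comparisons, where 6.87% and 5.22% of all genes were called.

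The response to induction was then compared between the clones, in a fit in which the libraries without and with B12 of each clone and state stood side by side. It differed for 4 of the 5 members tested, against 2.15% of all genes. This is not independent of the choice of Msln and Anxa8, since the members moved together in the same libraries. Each clone is 1 embryo, so the test sets the clones against the spread between cultures of the same embryo, without and with B12. The spread between embryos does not enter these p-values. The adjusted p was 0.00281 for Upk3b, 0.00772 for Upk1b, 0.0182 for Muc16 and 0.0248 for Lrrn4, and 0.370 for Wt1. Without B12 the log2 differences for clones 1, 2 and 3 were 1.37, 0.76 and -0.22 for Upk3b, 1.45, 0.50 and -0.20 for Upk1b, and 1.00, 0.09 and -0.31 for Lrrn4. The same order of clones held for Msln, at 2.04, 1.94 and -0.33, and for Anxa8, at 1.66, 1.44 and 0.20, which were not tested. Without clone 3, 0 of 5 were called between the remaining clones, in a fit that called 0 of 19231 genes. The unadjusted p of edgeR's test was 0.00118 for Upk1b, 0.0146 for Muc16, 0.0164 for Lrrn4, 0.0206 for Upk3b and 0.0706 for Wt1. The lack of calls therefore does not show that clones 1 and 2 responded alike. Without clone 1, which leaves the clones that share a title year, Upk3b alone was called (adjusted p = 0.00356), where 724 of 19102 genes were. The levels before induction enter these differences, and there clone 3 had the highest level of 6 of the 7 members (all but Wt1) in both MEF and MEF+B12. After induction clone 3 had the lowest level of 4 of 7 in OSKM and 6 of 7 in OSKM+B12. The part that the low Pou5f1 and Sox2 of clone 3 have in this was not tested.

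**Figure D3:**
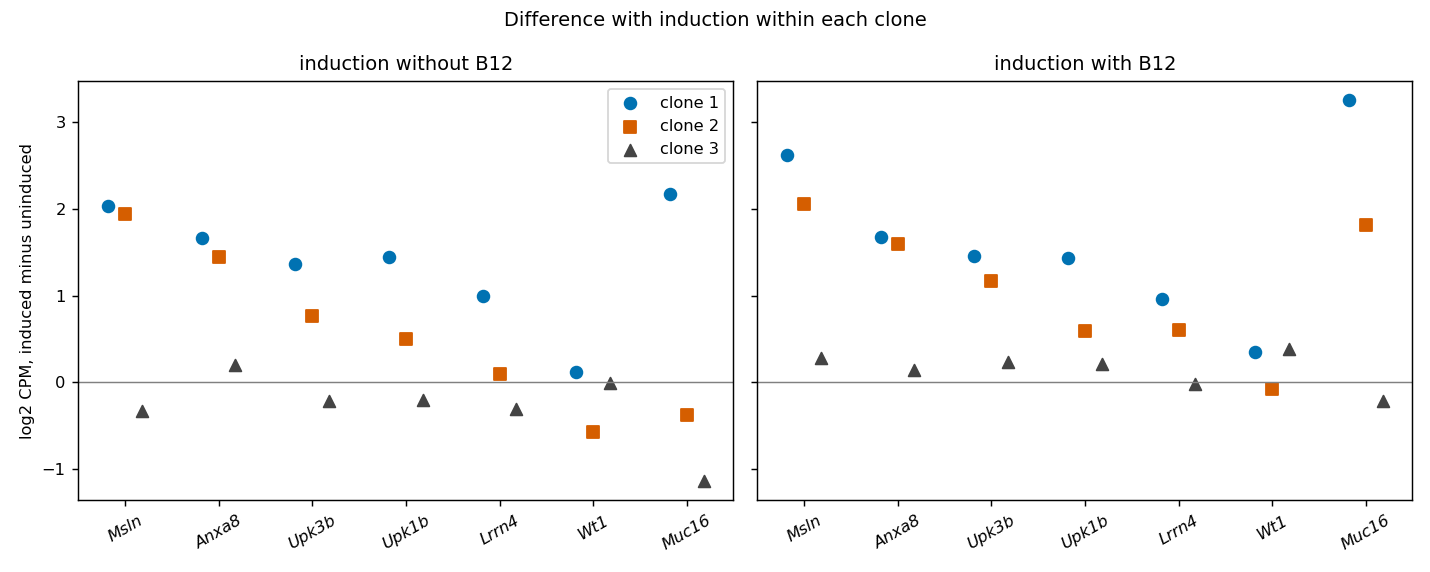
Difference in log2 CPM between induced and uninduced cells of the same clone for each member, without B12 on the left and with B12 on the right, with 1 point per clone. Without B12, clone 3 lies at or below 0.20 for every member, and clones 1 and 2 lie between 1.44 and 2.04 for Msln and Anxa8.

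Members other than Wt1 also moved together across libraries, to differing degrees. This is described here by the correlation of log2 CPM over 12 libraries that share clones and states. Pearson's r was 0.98 between Msln and Anxa8, 0.98 between Msln and Upk3b and 0.96 between Anxa8 and Upk3b. It was between 0.88 and 0.94 for Upk1b with these 3 genes and 0.89 between Lrrn4 and Muc16. Lrrn4 had a lower r of 0.75 with Msln and 0.72 with Anxa8, and Muc16 had 0.69 and 0.63. Msln and Anxa8 were both picked on their rise in these libraries, so the high r between them was partly set by that choice. Wt1 had r of -0.07 with Msln, -0.08 with Anxa8 and 0.52 with Lrrn4. Among 11969 genes compared, those most like Msln were Itgb4, an integrin of the basal side of epithelia, with r of 0.98, then Anxa8, Upk3b, Pi16 and Smpd3. Those most like Anxa8 were Itgb4 with r of 0.99, Cobl, Pi16, Add3 and Fgd5. For Upk3b they were Smpd3, Msln, Pi16, Anxa8 and Pkhd1l1, and for Upk1b they were Smpd3, Upk3b, Nop58, Fbl and Ccdc171. Lrrn4 was most like Gpm6a, itself a gene of mesothelium, with r of 0.98, then Myrf, Ints6, Anp32b and Brca2. Wt1 was most like Zfp180 with r of 0.92, Fam222b, Depdc5, Bcl11a and Prokr1, and Muc16 was most like Gab1, Gpm6a, Rtl3, Lrrn4 and Nrk.

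B12 changed none of the 7 members past the threshold. In induced cells 0 of 7 were called, where 1.06% of all genes were, and the log2 differences ran from -0.07 for Anxa8 to 0.47 for Muc16, with adjusted p-values of 0.604 to 0.958. In uninduced cells 0 of 7 were called against 1.38% of all genes. The log2 differences ran from -0.89 for Muc16 to -0.02 for Upk1b (adjusted p of 0.779 to 0.994). Values below 0 were not particular to the members. In that comparison 0 of 12 fibroblast genes and 0 of 11 genes of the coelomic lining were above 0, while 11 of 11 macrophage genes were. Averaged over both states 0 of 7 were called against 3.84%, and for the interaction, which asks whether B12 altered the response to induction, 0 of 7 against 0%. The 7 interaction terms ran from 0.01 for Anxa8 to 1.36 for Muc16, each with an adjusted p of 1. Terms above 0 were also found for 10 of 11 coelomic and 8 of 12 fibroblast genes, and for 2 of 9 annexins. The members moved together, so their signs are not separate results. No member had an unadjusted p under 0.05 in any of these comparisons, and DESeq2 called 0 as well. These tests leave room for sizeable effects. The 95% interval for B12 in induced cells was -0.73 to 1.14 for Msln, -0.71 to 0.56 for Anxa8 and -0.07 to 0.62 for Wt1. Within induced cells Msln was 1.23, 1.06 and 1.16 times as high with B12 in clones 1, 2 and 3, and in uninduced cells it was 0.818, 0.978 and 0.754 times as high. The direction was thus the same in all 3 pairs of each state, while neither difference passed the test.

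**Figure D4:**
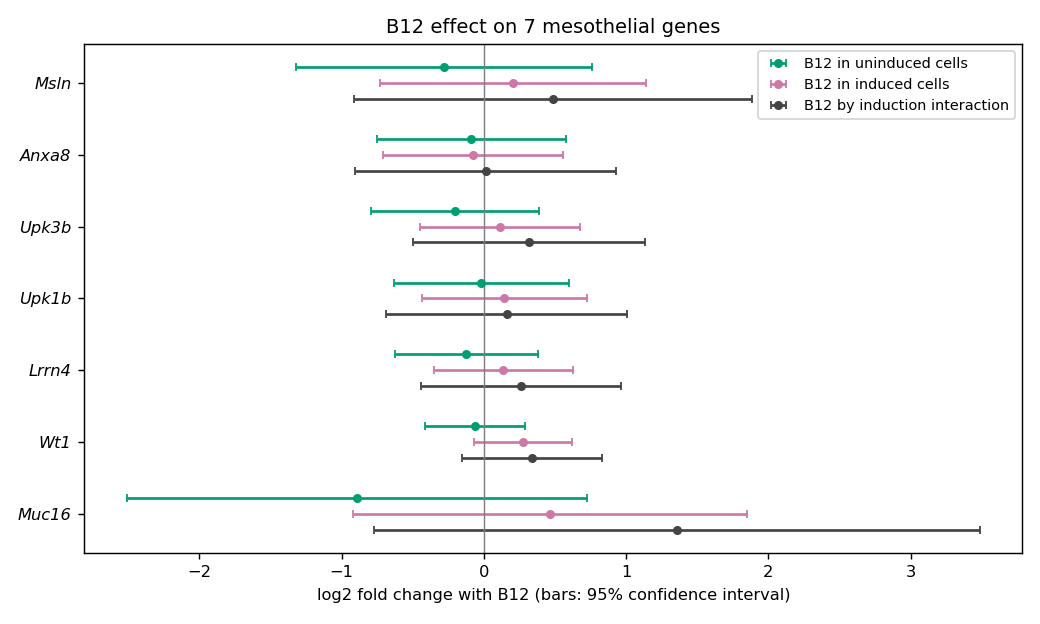
Log2 fold change of each member with B12 in uninduced cells, in induced cells, and the difference between them (interaction), with bars for the 95% confidence interval from the fit over 12 libraries. All intervals include 0, and those of Muc16 are the widest, reaching 3.49 for the interaction.

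The set was compared with further genes known from mesothelium, of which 22 of 24 could be tested. Some of them were abundant in every library of these fibroblast cultures, such as Pdpn at 263 to 489 CPM and Sulf1 at 322 to 448 CPM. Others were low, such as Krt18 at 0.172 to 0.529 CPM. How far the listed genes mark mesothelium in these cultures was not tested. Calb2, which encodes calretinin, had at most 1 count in any library, and Itln1, an intelectin of mesothelium, had 0 counts in all 12. The set is therefore described by its genes, and no mesothelial cell is named from it. Over the 12 libraries edgeR called 0 of the 22 with induction in either comparison (12 and 12 of the 22 had an unadjusted p under 0.05, where 19% and 14.9% of all genes did), with median log2 fold changes of 0.13 without and 0.28 with B12, against medians of -0.01 and 0.00 over all genes tested. Cldn15, a claudin of cell junctions, came closest, at 0.85 ± 0.17 (adjusted p = 0.144) and 1.01 ± 0.17 (adjusted p = 0.0737). The response differed between clones for 7 of 22, against 2.15% of all genes. Those with the smallest p were Igfbp6, a binding protein of insulin-like growth factors (adjusted p = 0.000269), the keratin Krt19 (0.00197), Podxl (0.00206) and Dpp4 (0.00927). Podxl encodes podocalyxin, which is also abundant on pluripotent stem cells. Its log2 differences without B12 were 2.96, 3.82 and 0.06 for clones 1, 2 and 3, and those of Igfbp6 were 0.96, 0.90 and 0.03. Without clone 3, 7 of the 22 rose and 4 fell without B12, and 6 rose and 2 fell with B12, where 6.87% and 5.22% of all genes were called, 635 higher and 687 lower without and 473 higher and 531 lower with B12. Podxl rose by 3.46 and Krt8, a keratin of simple epithelia, by 3.27 on the log2 scale without B12 (adjusted p = 0.00231 and 0.00139), while Cdh3, a cadherin, fell by 0.45 (adjusted p = 0.00628). In edgeR's test B12 changed 0 of the 22 in either state, with 1 in induced and 0 in uninduced cells at an unadjusted p under 0.05. Of the genes of the early coelomic lining, 0 of 11 were called for induction, for B12 or between clones, where at most 3.84% of all genes were. At an unadjusted p under 0.05 there were 2 and 1 for induction without and with B12, where 19% and 14.9% of all genes were. The most was 4, for B12 in uninduced cells, where 10.3% of all genes were. Without clone 3, 1 of 11 was called, with B12 only, where 5.22% of all genes were. This was Sema3d, a secreted guidance protein, which rose with induction by 0.61 in B12-supplemented cells (adjusted p = 0.0195).

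**Figure D5:**
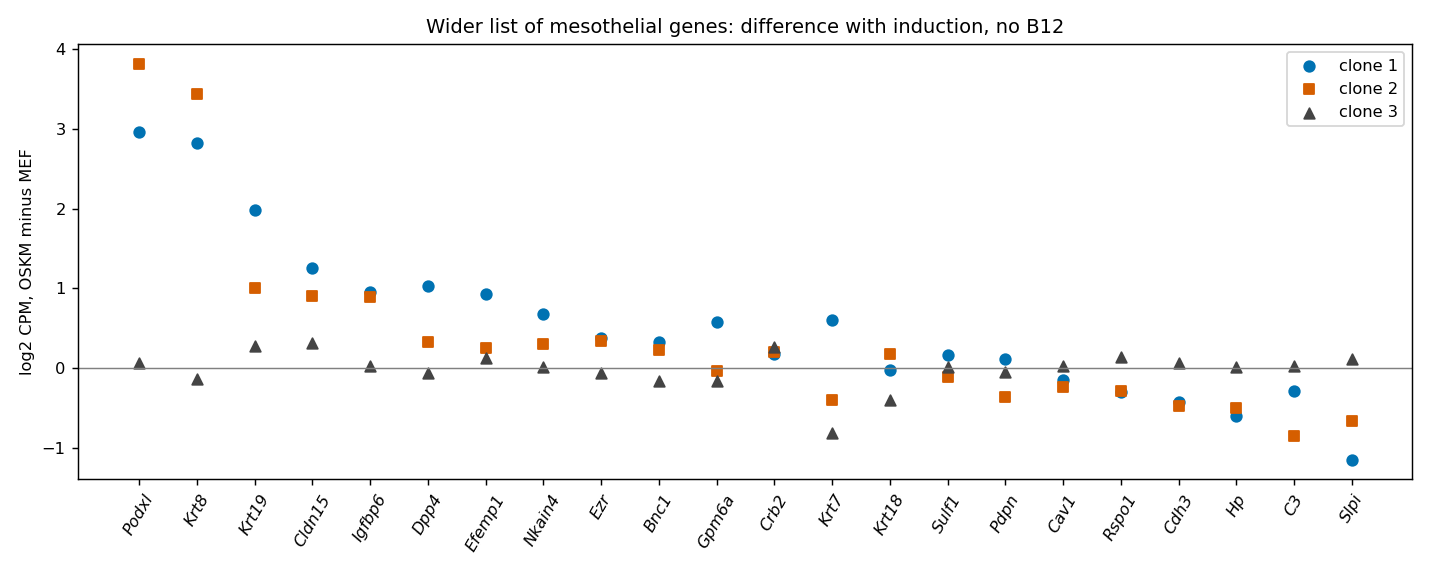
Difference in log2 CPM between OSKM and MEF of the same clone for 22 further mesothelial genes, ordered by clones 1 and 2, with 1 point per clone. Podxl, Krt8 and Krt19 lie highest in clones 1 and 2, while clone 3 lies near 0 for most genes.

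Markers of other cell types were summed in each library. The 13 epithelial genes had 2.55 to 3.90 CPM in the 6 uninduced and 3.18 to 13.9 CPM in the 6 induced libraries, of which Krt14, a keratin of basal epithelium, took 3.77 to 8.67 CPM in induced clones 1 and 2 and 0.462 and 0.430 CPM in clone 3. Over the 12 libraries 0 of the 5 tested were called with induction. Without clone 3, edgeR called 2 of 6 without and 3 of 6 with B12, where 6.87% and 5.22% of all genes were called. Krt14 and Trp63, a transcription factor of basal epithelium, rose in both comparisons, Trp63 by 1.08 and 1.35 on the log2 scale (adjusted p = 0.0115 and 0.00500). Cdh1, which encodes E-cadherin, rose with induction by 2.39 in B12-supplemented cells (adjusted p = 0.0429), on only 2 to 40 counts per library. Esrp2 was not called, at -0.55 and -0.50 (adjusted p = 0.230 and 0.366). The other 8 of the 13 were too low to be tested over the 12 libraries, among them Epcam with at most 9 counts and Esrp1, Grhl2 and Cldn4 with at most 2. The 8 endothelial genes had 44.1 to 48.4 CPM in uninduced and 52.7 to 147 CPM in induced libraries, most of it Tek. With induction 0 of the 4 tested were called over the 12 libraries in edgeR's test. Without clone 3, 2 of 5 were called in each comparison, where 6.87% and 5.22% of all genes were. These were Tek, at 1.67 and 1.76 (adjusted p = 0.000105 and 7.36e-05), and Cdh5, a cadherin of endothelium, at 1.81 and 1.61 (adjusted p = 0.00463 and 0.00598). Kdr had 181 to 439 counts and was not called, at -0.06 and 0.12 (adjusted p = 0.879 and 0.818). Pecam1 had at most 19 counts. Among the induced libraries both sums were higher in clones 1 and 2 than in clone 3, as Msln and Anxa8 were. The epithelial sum was lowest in clone 3 among MEF libraries, at 2.76 CPM, and in clone 2 among MEF+B12 libraries, at 2.55 CPM. Msln and Anxa8 were highest in clone 3 in both of these groups. The 11 macrophage genes had 1341 to 3407 CPM and 1379 to 2788 CPM and were higher with B12, where 7 of 11 were called in induced and 9 of 11 in uninduced cells, against 1.06% and 1.38% of all genes. The 12 fibroblast genes had 117500 to 147900 CPM in uninduced and 92610 to 121900 CPM in induced libraries, and all induced libraries except OSKM of clone 3 lay below every uninduced one. Most of the sum was Col1a1, Col1a2 and Col3a1. Over the 12 libraries 0 of the 12 were called with induction in either comparison, and 6 and 6 had an unadjusted p under 0.05, where 19% and 14.9% of all genes did. In the fit that left out clone 3, 5 fell without and 2 with B12, and 0 rose, where 6.87% and 5.22% of all genes were called. Without B12 the 5 that fell were Col1a1, Col1a2, Col3a1, Pdgfra and Pdgfrb. The 5 with a positive value were Thy1, Dcn, Lum, Twist1 and Prrx1, at 0.04 to 0.19 on the log2 scale. Muscle genes (4.60 to 8.16 against 3.30 to 8.71 CPM) and neural genes (32.3 to 57.2 against 27.5 to 45.2 CPM) overlapped between uninduced and induced libraries. The part of other cells in the members' levels was not tested.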

How the data were processed

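RNA was measured in 12 libraries, 4 groups with 1 library from each of 3 embryos. Per the labels and the study's methods, the authors made strand-specific poly(A) libraries, aligned read pairs with STAR 2.5.2 (per the submitters' processing notes) to mm10 (GRCm38) and counted them per gene in reverse-stranded mode with featureCounts. The deposited table holds raw counts, the runs of a library added together. No 2 libraries were identical (0 pairs), 0 columns were left unmapped and 0 rows lacked a gene identifier. GENCODE M21 gave symbols, coordinates and exon lengths for 55480 of 55573 identifiers.

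CPM, log2 CPM (prior count of 2) and FPKM were computed here from the counts with TMM-scaled totals (factors 0.934 to 1.06). Genes were tested with edgeR's quasi-likelihood F test (version 4.0.16 in R 4.3.3) on 19174 genes kept by filterByExpr, with Benjamini-Hochberg adjustment over all of them and a threshold of 0.05. Terms were group and clone, a block because each embryo gave every group. Deviations from the group means correlated between libraries of the same clone (r of 0.270 to 0.687 over 18 pairs). A further fit tested the clone by state product, with B12 within state. ± after a log2 fold change is its SE. The biological coefficient of variation was 8.04%. Counts carry no molecular identifiers. SEs, intervals and p-values rest on the spread between libraries that the fit leaves after group and clone. The procedure was tested on simulated data, in which each changed gene had the same fold change in every clone. A response that differs between clones was not simulated.

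The members and lists were chosen with earlier results of these data known. Named genes were the members, at most 4 genes per list by smallest p (others are named as markers, as 1 called gene of a list or as the induced factors), and the 5 genes most like each member among those with a mean log2 CPM of at least 1 and an ordinary symbol. Alternatives were DESeq2 1.42.0, other scalings and filters, fits to only the libraries compared, no block, robust dispersions (added after seeing the data), leaving out each clone or the OSKM library of clone 1, and the longest transcript as length. Anxa8 and Muc16 overlap genes on the other strand, which strand-specific counting keeps apart.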

Additional observations from a re-analysis of the deposited data

Results flagged for a closer look

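For 4 of the 5 members tested the response to induction differed between the 3 clones in edgeR's quasi-likelihood test of the difference itself, against 2.15% of all genes. The adjusted p was 0.00281 for Upk3b, 0.00772 for Upk1b, 0.0248 for Lrrn4 and 0.0182 for Muc16. In each of them clone 1 had the largest and clone 3 the smallest difference in both media. The 4 are not independent results, since they moved with Msln and Anxa8, which were chosen on induction. The number called was 0 without clone 3, in a fit that called no gene at all, and 1 without clone 1. Each clone is 1 embryo, so the test measured the clones against the spread between cultures of an embryo.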

How the results depend on the processing

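Each comparison was repeated under the alternatives. The count of members past the threshold for induction without B12 was 0 of 5 and became 1 (Upk3b) only without clone 3, a range of 0 to 1 when leaving out libraries. With B12 it was also 0 and became 1 (Upk3b) with no filter on low counts and without clone 3. For the response by clone it was 4 of 5, and between 0 (without clone 3) and 4 when libraries were left out, with 1 without clone 1. The 4 B12 comparisons gave 0 members under every alternative run. Without the replicate block the member counts for induction stayed at 0, and over all genes 0 were called in place of 14 and 20, so the pairing by clone changed no other call on the members. Signs changed for values that did not pass the threshold. When libraries were left out in turn, the log2 fold change of induction without B12 ranged from -0.12 to 0.58 for Lrrn4, from -0.27 to 0.066 for Wt1 and from -0.90 to 1.12 for Muc16. For B12 in induced cells it ranged from -0.14 to 0.17 for Anxa8 and from -0.015 to 0.45 for Lrrn4, and in uninduced cells from -0.034 to 0.015 for Upk1b and from -0.14 to 0.0039 for Wt1. With library totals as the scale, Upk1b was 0.016 for B12 in uninduced cells. The causes were not tested. Muc16 is lost when at least 10 counts are required in every library. Over all genes, the calls for induction without B12 ranged from 0 to 681 (no filter) across settings other than leaving out libraries, against 14, and with B12 from 0 to 646 against 20. For B12 in induced cells they ranged from 0 to 388 against 204, in uninduced cells from 0 to 845 against 264 and averaged from 90 to 934 against 736, and for the response by clone from 408 to 1257 against 413. When libraries were left out they ranged from 1 to 1322 and from 1 to 1004 for induction without and with B12 (the highest without clone 3), from 0 to 224, 0 to 334 and 34 to 785 for B12 in induced cells, uninduced cells and averaged, and from 0 (without clone 3) to 838 for the response by clone.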
